A study of Mus musculus with 9 samples.

Results

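The genes described are 9 that encode enzymes which build nonessential amino acids or move amino groups between them: Asns, Aldh18a1, Pycr1, Cth, Glul, Gpt2, Got1, Got2 and Bcat1. They were taken by gene symbol from a table of 54876 genes, each matched exactly 1 row, and all 9 were among the 12300 genes tested. The cells were MIN6, an insulinoma line of mouse pancreatic beta cells (strain C57BL/6 in the labels), kept for 24 h in a medium spelled DEME with 0.1, 1 or 20 times its standard arginine, here called low, standard and high arginine. Each medium had 3 libraries, 9 in all, and its sequenced material was total RNA made into libraries with a directional kit. The labels name no genetic change or added agent, so the groups differ by label only in arginine, and every group is the same transformed line. The labels do not say whether replicates come from different cultures; the p-values therefore reflect only how far these libraries scatter, which may be technical.

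Nonessential amino acids are made inside the cell from intermediates of glucose and glutamine metabolism. Transaminases pass the amino group of glutamate to keto acids, giving alanine and aspartate, and run in reverse when glutamate is needed. Cells short of an amino acid accumulate uncharged tRNA, which activates the kinase GCN2, raises translation of the transcription factor ATF4 and, through it, transcription of many enzymes of this group. In beta cells, transamination also links glutamate and aspartate to the malate-aspartate shuttle, which carries reducing equivalents into mitochondria during insulin secretion.

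ATF4 is known to bind composite C/EBP-ATF response elements, of which Asns carries the textbook example, so the promoters of the enzymes were searched for TGATGNAA, the core of that element, on both strands. RefSeq windows of 250 bases before to 50 after the start (GRCm38.p6) were matched for 8 of the 9 genes, in 9 windows, and the motif was in 3 of these 9. It occurs in 3.97% of all 32851 such windows. Since the Asns element was known beforehand, setting these shares side by side is no test of enrichment. The 3 stretches that hold it are shown because they are the only matches among the enzymes, 5′ to 3′ on the gene's strand, with the match in capitals.
Asns, minus strand, chr6:7693225-7693329: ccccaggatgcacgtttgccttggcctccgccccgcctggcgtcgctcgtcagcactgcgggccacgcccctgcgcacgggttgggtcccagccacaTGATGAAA
Pycr1, minus strand, chr11:120643749-120643868: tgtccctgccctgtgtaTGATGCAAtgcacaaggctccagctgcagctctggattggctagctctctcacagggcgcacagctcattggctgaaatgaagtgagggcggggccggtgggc
Got1, minus strand, chr19:43524606-43524725: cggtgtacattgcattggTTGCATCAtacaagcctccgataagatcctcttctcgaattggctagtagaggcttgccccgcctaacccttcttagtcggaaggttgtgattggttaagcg

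The match began 23 bases before the RefSeq start in Asns, 103 before it in Pycr1 and 102 before it in Got1, where it lies on the other strand. The deposited table places the start of Asns 45 bases and that of Pycr1 21 bases further upstream, so the Asns match falls inside the gene as the table draws it. Aldh18a1 held CACGTG, the E-box bound by MYC family factors, 59 bases before its start, and this motif is in 7.15% of all windows. The windows of Glul, Gpt2, Got2 and Bcat1 held neither motif, and Cth had no window in the reference. Of the genes with TGATGNAA, Got1 rose in low arginine, whereas Asns and Pycr1 did not pass the test described below. These matches describe letters in a window and are no measure of binding.

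The libraries held 21550637 to 26300872 reads in genes, and each enzyme gene had between 876 and 13818 reads in a library. Beta cell markers were abundant, with Ins2, Iapp, Pdx1, Nkx6-1 and Mafa all above 64 FPKM (reads scaled to gene length and library size) in every library, but Slc2a2, the glucose transporter of mouse beta cells, averaged 0.0103 FPKM. Markers of acinar cells, fibroblasts, macrophages and endothelium summed to at most 0.54 FPKM per list in any library. The sum of the beta cell list in standard arginine overlapped that in either other medium, while low arginine (79100 to 80650 FPKM) lay above high (75940 to 78440 FPKM). That sum is nearly all Ins2 and Iapp, so it says little of the other beta cell markers. Over the 9 libraries Pdx1 ranged from 141 to 396.8 FPKM and Nkx6-1 from 64.19 to 195.2. G6pc2 ranged from 370.5 to 810.8 FPKM and Pcsk1 from 44.67 to 219.8. Mafa (218.5 to 317.4) and Slc30a8 (16.11 to 23.27) varied less, and none of these was compared by medium here. Of the other islet cell lists, the alpha and delta sums separated low from standard arginine without overlap, and these sums were not tested. The 5 alpha cell markers, of which 2 were tested, summed to 260.3 to 340.8 FPKM in low arginine against 890.3 to 991.3 FPKM in standard. This sum was nearly all Ttr, while Irx2 was at most 0.0507 FPKM in every library. The 3 delta cell markers, 1 tested, summed to 8663 to 11260 FPKM in low arginine against 5383 to 6162 FPKM in standard, nearly all Sst, and Hhex was at or near 0. The PP cell list, nearly all Ppy, summed to 51.6 to 59 FPKM in low and 45.4 to 52.1 in standard arginine. The duct list, nearly all Spp1 with Krt19 at 0, summed to 5.42 to 11.8 in low and 4.44 to 5.74 in standard. In both lists low and standard arginine overlapped. The part of this in the results below was not tested, and in bulk RNA a change in the number of cells of a type cannot be told apart from a change of RNA per cell.

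In low arginine, 6 of the 9 enzyme genes rose, 1 fell and 2 did not pass the test. Cth, which makes cysteine, rose most, followed by Gpt2, which makes alanine, and then by Got1, Aldh18a1, Bcat1 and Glul. Got2, the mitochondrial aspartate aminotransferase, fell. Asns and Pycr1 did not pass. A gene was called in limma when its p, adjusted by Benjamini-Hochberg over all 12300 genes, was under 0.05, and changes are differences of log2(FPKM + 1). Low arginine called 62.2% of all tested genes, 30.3% higher and 31.9% lower, so a call by itself sets no enzyme apart. The median log2 change was 0.39 over the 9 enzymes and 0.001 over all genes tested. As the enzymes were chosen with earlier results of these data known, this contrast is a description and no test. The scaling in the deposited values sets the typical gene near 0, and in TPM the median was 0.112 over the 14506 genes tested there.

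**Figure D1:**
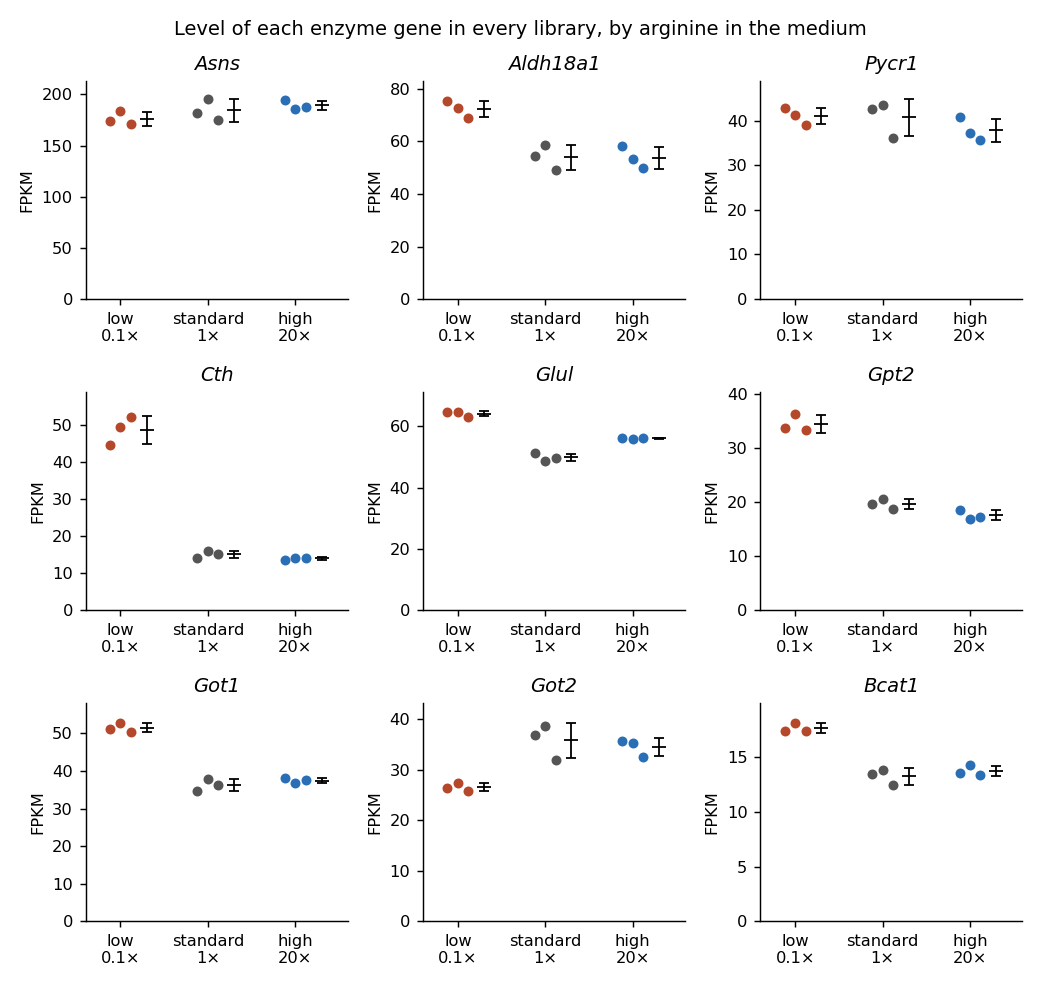
FPKM of each of the 9 enzyme genes (vertical axes from 0) in the 3 libraries of low, standard and high arginine; points are libraries, and the bar beside them is the mean with its SD. Cth, Gpt2, Got1, Aldh18a1, Bcat1 and Glul sit higher in all low arginine libraries than in any standard library, and Got2 sits lower. How many of all tested genes separate in this way was not counted, so a lack of overlap sets no enzyme apart.

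Asns encodes asparagine synthetase, which makes asparagine from aspartate and glutamine (chromosome 6, 7675169 to 7693254, minus strand, GRCm38). Its FPKM was 174, 183 and 171 in low arginine, 182, 196 and 175 in standard arginine and 194, 186 and 188 in high arginine. Low and standard arginine overlapped, and all high arginine libraries lay above all low ones. The log2 change was -0.07 (SE 0.06, 95% interval -0.19 to 0.06, adjusted p 0.346) for low against standard arginine. Quantile normalization turned this into a call at 0.13 (adjusted p 0.0152), and TPM gave 0.06 (adjusted p 0.237), so its direction depends on how libraries are scaled; over all alternatives the adjusted p was 0.0152 to 0.788. Per length, Asns was the most abundant of the 9 in every medium, with mean levels of 176 ± 6.49 FPKM (low arginine), 184 ± 10.8 FPKM (standard) and 189.5 ± 4.29 FPKM (high), each over 3 libraries with the SD.

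Aldh18a1 and Pycr1 are the first and last enzymes of proline synthesis from glutamate. Aldh18a1 encodes pyrroline-5-carboxylate synthase (chromosome 19, 40550257 to 40588463, minus strand), whose product is also a precursor of ornithine and so of arginine. It had 75.3, 72.5 and 68.9 FPKM in low arginine, 54.2, 58.4 and 49.1 in standard and 58.1, 53.2 and 49.7 in high arginine. All low arginine libraries were above all others, a log2 change of 0.42 (SE 0.08, adjusted p 0.000788) against standard. Pycr1, the reductase that completes proline (chromosome 11, 120635712 to 120643769, minus strand), had 42.8, 41.2 and 39.0 FPKM in low, 42.7, 43.4 and 36.0 in standard and 40.7, 37.1 and 35.7 in high arginine. The 3 groups overlapped, and the log2 change of low against standard arginine was 0.01 (95% interval -0.16 to 0.19, adjusted p 0.889). The first step thus rose where the last did not pass; the difference between these changes was not tested. Pycrl, a further reductase of that step, did not pass either, at -0.12 (adjusted p 0.208).

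Cth encodes cystathionine gamma-lyase, which releases cysteine from cystathionine and is a source of hydrogen sulfide (chromosome 3, 157894248 to 157925077, minus strand). It had 44.5, 49.4 and 52.1 FPKM in low arginine, 14.1, 16.0 and 15.1 in standard and 13.5, 14.2 and 14.2 in high arginine. The lowest low arginine library was well above the highest of the other 6. The log2 change against standard arginine was 1.62 (SE 0.07, 95% interval 1.47 to 1.78, adjusted p 3.28e-08), and only 0.407% of tested genes had a higher one. Cbs, the enzyme of the step before it, was at 13.5 ± 0.577 FPKM in low and 12.6 ± 0.642 in standard arginine and did not pass (0.09, adjusted p 0.165), although it was called higher in TPM (0.22, adjusted p 0.00406).

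Glul encodes glutamine synthetase, which joins ammonia to glutamate (chromosome 1, 153899944 to 153909723, plus strand). It had 64.5, 64.7 and 63.1 FPKM in low, 51.1, 48.6 and 49.6 in standard and 56.1, 55.8 and 56.2 in high arginine. No 2 media overlapped, and standard arginine was the lowest of the 3. The log2 change was 0.36 (SE 0.05, adjusted p 7.12e-05) for low against standard arginine and 0.17 (SE 0.05, 95% interval 0.06 to 0.27, adjusted p 0.165) for high against standard. High was below low arginine by a log2 change of -0.19 (SE 0.05, adjusted p 0.00453). Gls2, a glutaminase, which runs the opposite reaction, fell in low arginine (-0.60, SE 0.08, adjusted p 0.000119).

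**Figure D2:**
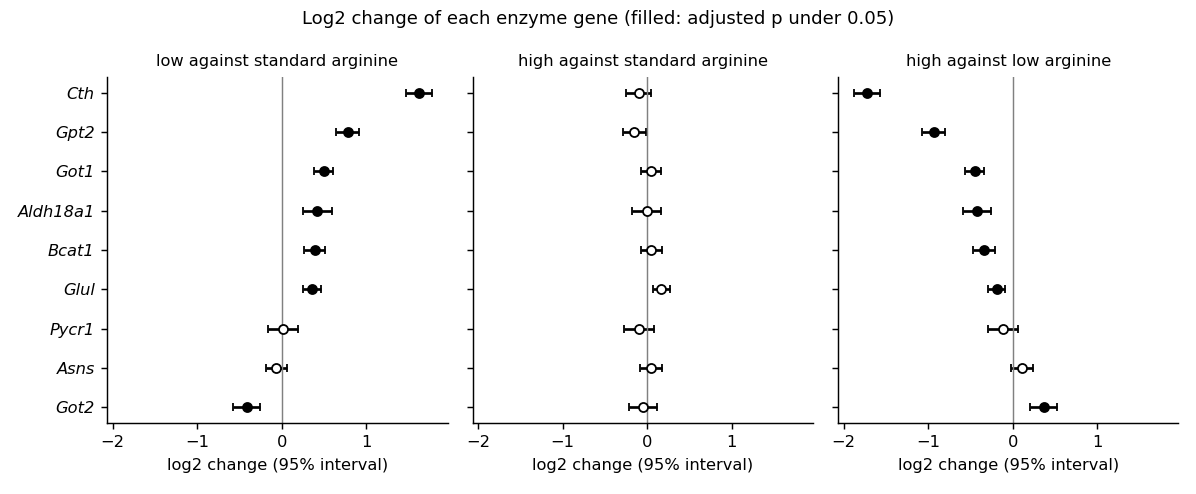
Log2 change of log2(FPKM + 1), horizontal axis, with its 95% interval for each enzyme gene, with 1 panel per comparison of media; filled points passed an adjusted p under 0.05. Low arginine moved Cth by 1.62 and Got2 by -0.42, whereas no interval of high against standard arginine reached beyond -0.29 or 0.27.

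The alanine transaminase Gpt2 is mitochondrial and makes alanine from pyruvate and glutamate (chromosome 8, 85492576 to 85527560, plus strand). It had 33.8, 36.4 and 33.3 FPKM in low arginine, 19.8, 20.6 and 18.7 in standard and 18.6, 16.9 and 17.2 in high arginine. Low arginine stood above every other library, with a log2 change of 0.78 (SE 0.06, adjusted p 1.8e-06) against standard, which 4.11% of tested genes exceeded. Its cytosolic paralogue Gpt fell, at 3.21 ± 0.523 FPKM in low and 4.02 ± 0.125 in standard arginine (-0.26, SE 0.08, adjusted p 0.0204), a call that was lost in TPM (-0.19, adjusted p 0.138).

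The aspartate transaminases Got1, cytosolic (chromosome 19, 43499752 to 43524605, minus strand), and Got2, mitochondrial (chromosome 8, 95864134 to 95888547, minus strand), catalyse the same reaction on either side of the inner mitochondrial membrane. Got1 had 51.3, 52.8 and 50.5 FPKM in low arginine, 34.8, 38.0 and 36.2 in standard and 38.0, 36.7 and 37.7 in high arginine. Got2 had 26.3, 27.3 and 25.8 FPKM in low, 36.8, 38.6 and 32.0 in standard and 35.7, 35.2 and 32.5 in high arginine. For both genes the low arginine libraries were apart from the other 6, Got1 above them and Got2 below. The log2 change of low against standard arginine was 0.49 (SE 0.05, adjusted p 1.49e-05) for Got1 and -0.42 (SE 0.07, adjusted p 0.000539) for Got2. A processed pseudogene, Got2-ps1, had at most 0.805 FPKM in a library.

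Bcat1, the cytosolic branched-chain aminotransferase, passes the amino group of leucine, isoleucine and valine to 2-oxoglutarate, giving glutamate (chromosome 6, 144993835 to 145076184, minus strand). It had 17.4, 18.2 and 17.4 FPKM in low arginine, 13.5, 13.9 and 12.4 in standard and 13.6, 14.3 and 13.4 in high arginine. All low arginine libraries were above the other 6, with a log2 change of 0.39 (SE 0.06, adjusted p 0.000151) against standard. Its mitochondrial paralogue Bcat2 was lower in level, at 5.67 ± 0.0865 FPKM in low and 5.08 ± 0.715 in standard arginine, and did not pass (0.14, adjusted p 0.158), but was called higher in TPM (0.27, adjusted p 0.0311).

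**Figure D3:**
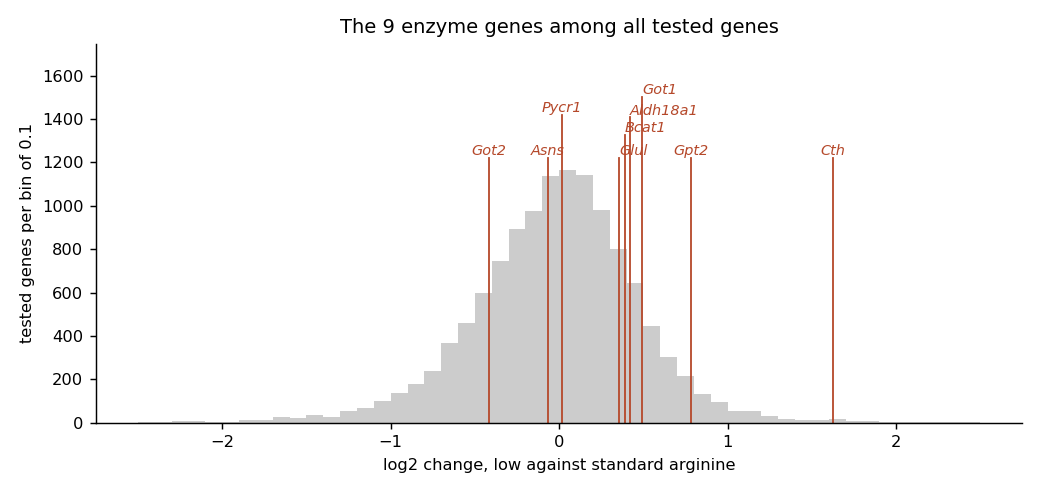
Number of tested genes (vertical axis, bins of 0.1) by log2 change of low against standard arginine (horizontal axis, shown from -2.5 to 2.5), with a line at each enzyme gene. Cth lies at 1.62 in the right tail, Gpt2 at 0.78, and Asns and Pycr1 near the centre of all genes.

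Ratios within a library do not change when a library is multiplied by a single factor (quantile normalization does change them), so paralogues were also set against each other. The Got1/Got2 ratio of FPKM was 1.95, 1.93 and 1.96 in low arginine, 0.946, 0.984 and 1.13 in standard and 1.07, 1.04 and 1.16 in high arginine. The cytosolic and mitochondrial transcripts were near parity outside low arginine, and all low arginine libraries lay above the other 6. Gpt2/Gpt was 8.88 to 13.4 in low, 4.84 to 5.01 in standard and 4.17 to 4.61 in high arginine. Bcat1/Bcat2 was 3.04 to 3.26 in low, 2.28 to 2.95 in standard and 2.38 to 2.85 in high arginine. For these 3 ratios the low and standard arginine libraries did not overlap, which gives a two-sided exact permutation p of 0.1, the smallest that 3 libraries against 3 allow, so none can pass 0.05.

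**Figure D4:**
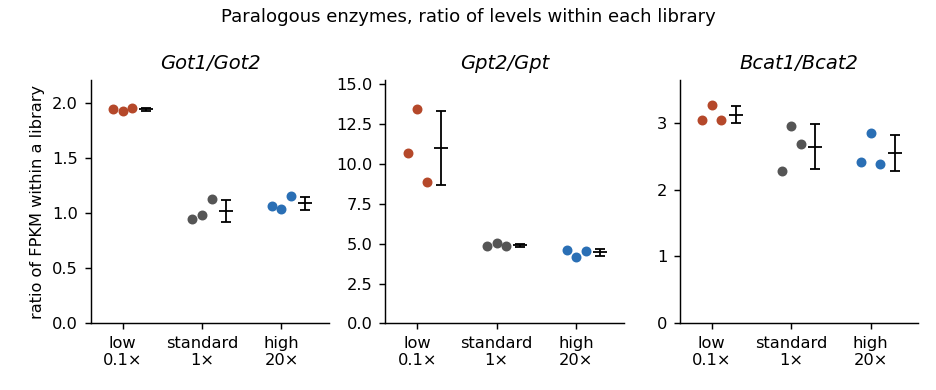
Ratio of the FPKM of 2 paralogues within each library (vertical axes from 0, no unit), in low, standard and high arginine; points are libraries, and the bar beside them is the mean with its SD. Got1/Got2 is 1.93 to 1.96 in low arginine and 0.946 to 1.16 in the other 6 libraries.

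High against standard arginine called none of the 9 enzymes in limma, beside 0.309% of all tested genes. At an unadjusted p under 0.05 there were 2, Glul higher and Gpt2 lower, where 14.3% of all genes reached that level. Gpt2 was at 17.6 ± 0.904 FPKM in high and 19.7 ± 0.917 in standard arginine, without overlap, a log2 change of -0.15 (SE 0.06, 95% interval -0.29 to -0.02, adjusted p 0.289). With array weights, which count consistent libraries more, Glul was called higher (0.15, adjusted p 0.0364) and Gpt2 lower (-0.20, adjusted p 0.0401), in a setting that called 1323 genes in all. Over all alternatives the adjusted p was 0.0364 to 0.442 for Glul and 0.0401 to 0.651 for Gpt2. Voom weights called none of the 9. The other 7 had log2 changes from -0.10 to 0.05, and their adjusted p-values were 0.525 to 0.983.

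High against low arginine called Cth, Gpt2, Got1, Aldh18a1, Bcat1 and Glul lower, 6 of the 9, and Got2 higher, 1 of the 9. Of all tested genes 61.5% were called there, 32.3% higher and 29.2% lower. The log2 changes were -1.73 (SE 0.07) for Cth, -0.93 (SE 0.06) for Gpt2, -0.45 (SE 0.05) for Got1, -0.42 (SE 0.08) for Aldh18a1, -0.34 (SE 0.06) for Bcat1 and 0.37 (SE 0.07) for Got2. Asns was at 0.11 (adjusted p 0.131), with values of either sign among the alternatives (-0.09 to 0.14), and Pycr1 at -0.11 (adjusted p 0.241). This comparison uses the same low arginine libraries as the first, so the 2 are not separate evidence. Quantile normalization and TPM called Pycr1 lower, both at -0.24 (adjusted p 0.0112 and 0.0109), within a range of 0.0109 to 0.515 over all alternatives.

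The order of the levels per length differed between media. In low arginine it ran Asns, Aldh18a1, Glul, Got1, Cth, Pycr1, Gpt2, Got2 and Bcat1, and of these neighbours Got1 and Cth overlapped between libraries. In standard arginine it ran Asns, Aldh18a1, Glul, Pycr1, Got1, Got2, Gpt2, Cth and Bcat1, where Aldh18a1 and Glul, Pycr1 and Got1, and Got1 and Got2 overlapped. In high arginine Glul came before Aldh18a1, the remaining order was that of standard arginine, and Glul and Aldh18a1, Pycr1 and Got1, and Cth and Bcat1 overlapped. Cth ranked 5 of 9 in low arginine and 8 in the other media, while Got2 ranked 8 in low arginine and 6 in the others.

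A list of 40 other enzymes that neighbour these reactions had 29 tested members, of which 8 rose and 9 fell in low arginine, with a median log2 change of -0.06, where 30.3% of all tested genes rose, 31.9% fell and 62.2% were called in either direction. The list as a whole was thus called about as often as all genes. All 5 enzymes of serine and glycine synthesis rose. Psph, which makes serine, was at 51.8 ± 4.05 FPKM in low and 29.2 ± 1.63 in standard arginine (0.81, SE 0.07, adjusted p 3.29e-06). Shmt2, the mitochondrial enzyme that turns serine into glycine, was at 214 ± 14.6 in low and 121 ± 7.69 in standard (0.81, SE 0.07, adjusted p 5.65e-06), and Phgdh, the first step, rose by 0.58 (SE 0.08). The 4 tested genes that complete the malate-aspartate shuttle beside Got1 and Got2 gave 3 falls: the malate dehydrogenases Mdh1 (-0.69, SE 0.08) and Mdh2 (-0.41, SE 0.07) and the aspartate-glutamate carrier Slc25a12 (-0.29, SE 0.06). Under all alternatives, 4 to 5 of the serine and glycine genes were called higher and 3 to 4 of the shuttle genes lower, none of either group in the other direction.

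Genes that break down the products were mixed. Asrgl1, which hydrolyses asparagine, rose by 0.40 (SE 0.06, adjusted p 0.000255), and Aldh4a1, which returns the proline intermediate to glutamate, fell (-0.43, SE 0.08, adjusted p 0.00109). Of 4 genes of branched-chain keto acid breakdown, Dbt rose by 0.68 (SE 0.07) and Bckdhb (-0.57, SE 0.07) and the kinase Bckdk (-0.49, SE 0.06) fell. Gfpt1, which uses glutamine to make hexosamines, fell (-0.49, SE 0.06). Among 11 other transaminases 5 were tested: Ccbl1 rose by 0.27 (SE 0.08) and Gpt fell, while Oat, which links ornithine to the proline intermediate, was at -0.10 (adjusted p 0.173) and changed sign with a call under quantile normalization (0.15, adjusted p 0.0339). Got1l1, a relative of Got1, averaged 0.0545 FPKM with low arginine against 0.0575 FPKM with standard arginine and was not tested. High against standard arginine called 0 of these 29 in limma, 1 at an unadjusted p under 0.05, 0 with voom weights and 2 with array weights. Of all 12300 tested genes, 0.309% were called there in limma, 14.3% had an unadjusted p under 0.05, and voom weights called 74 and array weights 1323.

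**Figure D5:**
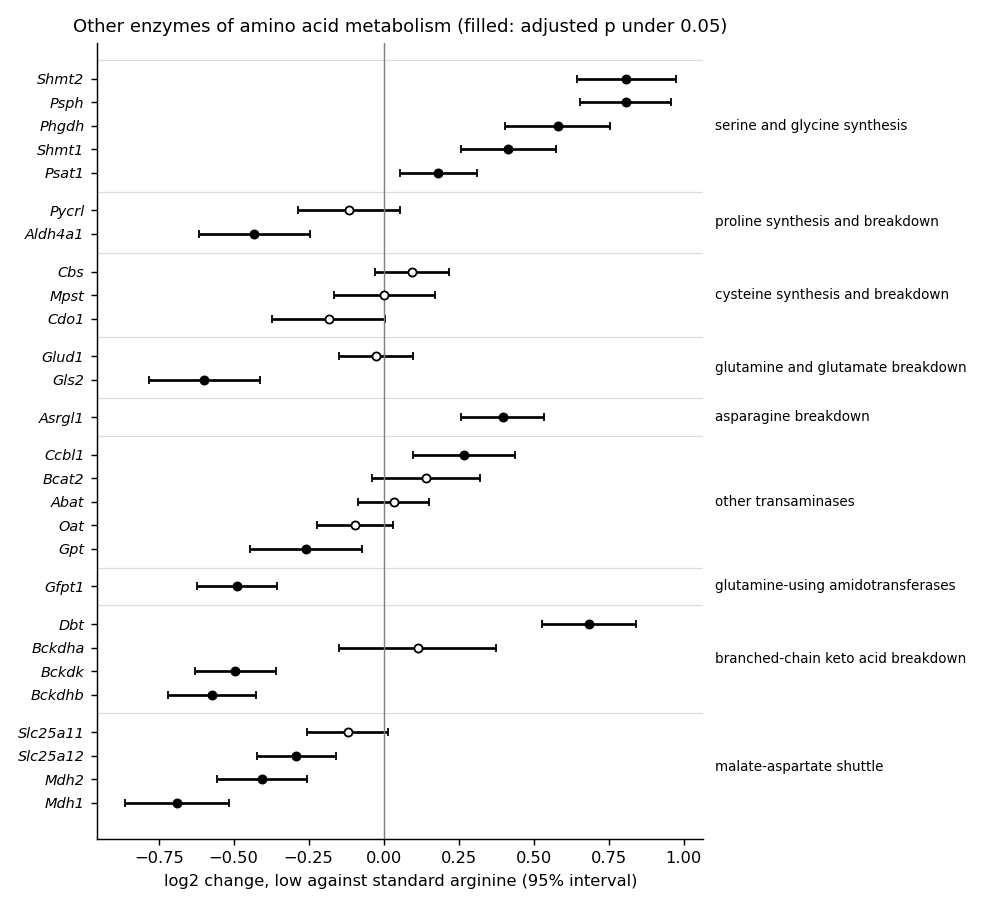
Log2 change of low against standard arginine (horizontal axis) with its 95% interval for 27 of the 29 tested genes of the list of other enzymes, grouped by role; filled points passed an adjusted p under 0.05. Serine and glycine synthesis lies right of 0 in all 5 genes, and Mdh1, Mdh2 and Slc25a12 lie left of it.

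The tested gene most like each enzyme across the 9 libraries was found by Pearson correlation of log2(FPKM + 1) among 7038 candidates with a mean of at least 5 FPKM, as a description with no p. The 3 media dominate such values, and libraries share the low arginine shift. Cth was most like Nupr1, a stress-induced chromatin protein (r = 0.998), which was at 182 ± 8.59 FPKM in low and 58.7 ± 2.48 in standard arginine. Gpt2 was most like Aagab (r = 0.996), Got1 like Xpo5 (r = 0.996), Bcat1 like Snrpc (r = 0.996), Aldh18a1 like Noc2l (r = 0.992) and Glul like Ccdc117 (r = 0.988). Got2, which fell, was most like H2-D1, a class I histocompatibility gene (r = 0.996). Asns and Pycr1, with no call, had weaker best matches, Dgkd (r = 0.952) and Ube3b (r = 0.961).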

How the data were processed

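The authors deposited FPKM per gene, 1 column per library, with gene lengths, per the file headers. CASAVA 1.8, HISAT2 2.0.5, featureCounts 1.5.0-p3 and build mm9 are named in the submitters' processing notes; the strand setting is not given. GENCODE M21 holds 54495 of the gene IDs, and 98.33% of these have identical start and end in GRCm38, which is therefore the build named here. No column of per-sample values was left unused (0). FPKM times gene length moved in whole reads in 100% of values (within 0.01), which gave the read totals. The library size behind FPKM was 1.048 to 1.077 times those reads in low, 0.962 to 1.016 in standard and 0.969 to 0.994 in high arginine libraries, so a scale factor was already in the deposited values. These sizes were proportional to median-of-ratios factors, each library's median ratio to the mean of each gene over libraries. The quotient of factor and relative size was 1.0075 in all 9 libraries.

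Genes that reached an FPKM of 1 or more in 3 or more of the 9 libraries were tested with limma 3.58.1 in R 4.3.3 on log2(FPKM + 1), which understates changes of low genes: 1 fit over all libraries, group as its only term, prior variance following mean expression, 6 residual degrees of freedom, Benjamini-Hochberg over 12300 genes. No count model was fitted to FPKM. The rebuilt reads served only for depth, scale factors, the noise between replicates and voom weights. The fit was tested on simulated data with independent noise, in which far fewer genes changed than were called here. That test does not show how the fit behaves with so many changes. Replicates differed by more than sampling noise (chi-square per degree of freedom 2.68 to 13.6). The enzymes and lists were chosen with earlier results of these data known. All 9 enzymes are named whatever their result; of the lists, up to 3 called genes per role by smallest p, and paralogues always; some genes of the lists are counted but not reported by name here. Alternatives covered the pseudocount, filters, scaling, libraries in the fit, a replicate block, variance model and weights, and leaving out each library.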

Additional observations from a re-analysis of the deposited data

How the results depend on the processing

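No enzyme called in low against standard or high against low arginine lost its call under any of the alternatives run, each left-out library included. Of 513 values of single enzymes under the alternatives, 508 kept their side of the threshold, 4 gained a call and 1 changed sign with a call: Asns in low arginine under quantile normalization, at 0.13. In TPM the median of all genes moved to 0.112 in low against standard arginine, and relative to it Cth was at 1.68, Gpt2 at 0.81, Aldh18a1 at 0.44, Got2 at -0.41 and Asns at -0.05. There 61.8% of calls were higher against 48.7% in FPKM, and 38.8% against 52.5% in high against low arginine. The filter was applied again to the TPM values, so these shares cover 14506 genes in TPM and 12300 in FPKM.

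For high against standard arginine, array weights called 1 enzyme higher and 1 lower. The count over all genes there, 38, became 6 without a filter on low values, 0 with only the 2 groups compared, 88 with a replicate block, 74 with voom weights and 1323 with array weights; the cause was not tested. Leaving out a library gave 0 to 61: 0 without standard replicate 2 or high replicate 3, 1 without high replicate 2, 10 without standard replicate 1, 13 without low replicate 3, 20 without low replicate 2 or high replicate 1, and 61 without standard replicate 3. Same-numbered libraries were not treated as pairs across the 3 media: the labels give the number no meaning, and 3 of 9 same-number pairs had a correlation of deviations of 0.1 or less (range over all -0.04 to 0.24). The 3 pairs of low and high libraries were all above 0.1 (0.153 to 0.2425), so the numbers may pair these 2 media, and 8 of 9 libraries correlated best with their own number, a hint from the data only. With the replicate block, high against low arginine called 1 enzyme higher and 6 lower, as without it, and 8060 genes in all, and the block changed no call of an enzyme in any comparison.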

Other observations

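Amino acid transporters and regulators of the ATF4 pathway were read beside the enzymes, from lists chosen with earlier results known. Of 24 transporters 17 were tested, and 13 rose and 3 fell in low arginine, with a median log2 change of 0.51. Of all tested genes 62.2% were called there, 30.3% higher and 31.9% lower. Slc3a2, the heavy chain shared by several transporters, was at 318 ± 17.9 FPKM in low and 104 ± 7.36 in standard arginine (1.61, SE 0.07, adjusted p 4.28e-08). Slc6a9, a glycine transporter, rose by 1.26 (SE 0.07), and Slc36a1, a proton-coupled carrier of small amino acids, fell (-0.92, SE 0.06). Of 15 regulators, 12 rose and 2 fell, with a median of 1.19, beside the same shares of all genes (30.3% higher, 31.9% lower). Atf3, a transcription factor, was at 52.3 ± 3.96 FPKM in low and 6.41 ± 0.663 in standard arginine (2.85, SE 0.08), and Ddit3 rose by 2.17 (SE 0.07); its symbol has 2 rows in the table, and the value is of the tested row, the other being at 0 in every library. Atf4 itself, named after its values were seen, was at 236 ± 6.28 FPKM in low and 258 ± 14.9 in standard arginine and did not pass (-0.13, adjusted p 0.0783), but quantile normalization called it higher (0.15, adjusted p 0.00214). Over all alternatives, 10 to 14 transporters and 12 to 13 regulators were called higher.

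High against standard arginine called 0 of the 17 transporters in limma, 4 at an unadjusted p under 0.05, 2 with voom weights and 4 with array weights. It called 0 of the 15 regulators in limma, 2 at an unadjusted p under 0.05, 0 with voom weights and 1 with array weights. Over all 12300 tested genes, 0.309% were called in limma, 14.3% had an unadjusted p under 0.05, and voom weights called 74 and array weights 1323. Slc1a5, a glutamine transporter, and Slc38a4, a carrier of neutral amino acids, also named after their values were seen, came closest, at -0.35 (SE 0.06) and 0.36 (SE 0.07), each with an adjusted p of 0.0509.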
